A study of Rattus norvegicus with 69 samples.

Results

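Rbp4, Ttr, Igf2 and Igfbp2 are 4 genes of secreted proteins whose mRNA in brain is known mainly from the choroid plexus and the meninges, and their signals were followed in RNA of hippocampal CA1 on 69 arrays. The members were taken as every probe set that the array's annotation gives to 1 of these symbols, which found 14 probe sets of 4 genes among 4736 genes with a probe set of their own. Rbp4 has 3 of them, Ttr 2, Igf2 6 and Igfbp2 3. The genes were chosen by the measured signal of Rbp4, which was already known to differ between sleep-deprived and home cage animals on these arrays, so the differences between SD and HC in the 4 genes are given as a description, with standard errors and without a test.

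Each array held the CA1 RNA of 1 male Fisher 344 rat aged 3 to 5 months. Sleep-deprived animals spent 24 h (24SD, 16 animals, 8 in each cohort) or 72 h (72SD, 20 animals, 12 of cohort 2 and 8 of cohort 1) with a cage mate on small platforms above water. Animals labelled NES (24NES with 10 and 72NES with 6 animals, all of cohort 1) were in the same chamber for as long, with a rubber-coated grid over the platforms on which they could sleep. Home cage animals (HC, 17, of which 12 of cohort 2 and 5 of cohort 1) stayed in their cage. The SD and the NES comparisons of cohort 1 share its 5 HC animals. HC and SD animals of cohort 1 had also been trained on active avoidance, which is not stated for the NES animals or for cohort 2, so the NES condition and a difference in training cannot be told apart. Which animals shared a chamber is not given in the labels, and every p treats animals as independent.

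Retinol-binding protein 4 carries retinol, the alcohol form of vitamin A, from its stores to other tissues, and circulates bound to transthyretin. Transthyretin, the product of Ttr, is also a carrier of thyroid hormone and is among the most abundant mRNAs of the choroid plexus, the epithelium that makes cerebrospinal fluid in the ventricles. Igf2 encodes a growth factor of the insulin family, and Igfbp2 one of the proteins that bind such factors; in adult brain, both are known from the choroid plexus and the membranes around the brain. The choroid plexus lies in the ventricle beside the hippocampus, so a block of CA1 can hold some of it. In RNA of a whole block, fewer cells of a type and less RNA per cell cannot be told apart.

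In the rat genome (GRCr8), Rbp4 lies on chromosome 1 from 245306349 to 245313551, Igf2 on chromosome 1 from 207243873 to 207261263, Igfbp2 on chromosome 9 from 81864811 to 81892179 and Ttr on chromosome 18 from 12216684 to 12225972. The 250 bases before the start of Rbp4 and of Igfbp2 are shown, because Rbp4 is the member whose signal differed most from HC for its error and Igfbp2 the member whose signal correlated most with that of Rbp4, inversely. They are RefSeq's, read 5′ to 3′ on the strand of the gene, and capitals mark the 1 motif found in each of the 3 searched.
Rbp4, chr1:245313552-245313801, minus strand: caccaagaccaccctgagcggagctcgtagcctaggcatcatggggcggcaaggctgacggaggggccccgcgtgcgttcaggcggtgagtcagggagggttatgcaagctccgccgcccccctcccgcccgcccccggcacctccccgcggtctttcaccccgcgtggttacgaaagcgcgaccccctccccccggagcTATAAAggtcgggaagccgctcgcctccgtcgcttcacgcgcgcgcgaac
Igfbp2, chr9:81864561-81864810, plus strand: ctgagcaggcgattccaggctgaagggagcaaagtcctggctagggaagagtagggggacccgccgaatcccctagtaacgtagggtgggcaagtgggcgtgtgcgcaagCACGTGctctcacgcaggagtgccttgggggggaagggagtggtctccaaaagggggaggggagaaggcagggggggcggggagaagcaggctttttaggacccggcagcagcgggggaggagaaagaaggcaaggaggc
The motif in Rbp4 is TATAAA, the core of a TATA box, 50 bases before the start, and 12.9% of the 33469 promoter windows of the genome hold it on either strand. That in Igfbp2 is CACGTG, an E-box, 140 bases before the start, and 5.59% of windows hold it; its letters are the same on both strands. AGAACA, part of the glucocorticoid response element, which 17.5% of windows hold, was in neither, and the windows of Igf2 and Ttr held none of these letters. The window of Rbp4 is 70.8% G and C and that of Igfbp2 64%, beside a median of 51.2% over all windows. No binding was measured in this study, and a match is a run of letters only.

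Signals were the authors' MAS5 values on a linear scale, 1 for each probe set, and were compared as log2. A gene was tested across the arrays if its brightest probe set had a mean log2 signal in the upper 50% of all probe sets, a signal of 440.0, which 2696 genes passed. Of the 14 member probe sets 6 passed: 1 of Rbp4 (M10934_s_at), 1 of Ttr (rc_AA945169_at), 2 of Igf2 (M17960_g_at and X17012mRNA_s_at) and 2 of Igfbp2 (M91595exon_s_at and J04486_at). The other 8, and second probe sets, were fitted with every probe set. Array medians ran from 400.5 to 484.9. The median correlation of an array with the others of its group and cohort was lowest in 24NES replicate 58 (0.930) and at least 0.959 in every other array. The cohort term of limma passed at an adjusted p under 0.05 in 1701 of the 2696 genes (63.1%), with a median size of 0.20 on the log2 scale over all of them, and cohort was a term in each SD comparison.

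By its brightest probe set, Rbp4 had a higher mean signal in sleep-deprived animals than in HC in both cohorts, and a higher mean in both NES groups than in HC of cohort 1. In cohort 2, M10934_s_at had signals of 619.8 to 1052.1 (median 890) in 24SD and 705.5 to 999.9 (median 831) in 72SD, against 247.1 to 878.1 (median 750.1) in HC. In cohort 1 it had 482.7 to 707.7 (median 569) in 24SD and 439.1 to 647.8 (median 521) in 72SD, against 325.3, 342.6, 352.4, 353.5 and 428.1 in the 5 HC arrays. All 16 SD arrays of cohort 1 thus lay above every HC array of their cohort. In cohort 2 the groups overlapped, with 4 of 8 24SD arrays and 4 of 12 72SD arrays above every HC array. The share of all genes that part as far from 5 HC arrays was not counted. With cohort in the model the log2 difference from HC was 0.43 ± 0.10 (SE) at 24 h and 0.35 ± 0.095 at 72 h, or 1.35-fold and 1.28-fold. This is the contrast that led to the choice of the gene, and nothing is read from a test of it. Over all genes, limma's F-test over both durations called 10 of 2696 at an adjusted p under 0.05 (0.371%), 8 higher and 2 lower in SD; 334 (12.4%) passed unadjusted.

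The difference was larger in value in cohort 1, and 1 HC array of cohort 2 stood apart. In cohort 2 it was 0.29 ± 0.13 (SE) at 24 h and 0.26 ± 0.12 at 72 h, and in cohort 1 0.67 ± 0.16 and 0.54 ± 0.16. The difference between the cohorts, cohort 2 minus cohort 1, had a mean of -0.33 ± 0.18 over both durations and did not pass (limma's F-test, adjusted p = 0.839), where 5 of 2696 genes did (0.185%; 199 unadjusted). HC replicate 6 of cohort 2 had a signal of 247.1, and the next lowest HC array of its cohort 538.2. This array was the lowest or the highest of its 12 for 31.0% of the genes tested, where an even share is 16.7%. Without it the differences over both cohorts were 0.35 at 24 h and 0.27 at 72 h, and in a model that had no term for cohort 0.28 and 0.27.

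The NES groups showed the level of Rbp4 in animals that were in the chamber and could sleep. M10934_s_at had 413.7 to 845.7 (median 573) in 24NES and 384.4 to 622.9 (median 581) in 72NES, against 325.3 to 428.1 in the 5 HC arrays of cohort 1. Of the NES arrays, 9 of 10 and 5 of 6 lay above every HC array, and how many of all genes do so was not counted. The log2 difference from HC was 0.70 ± 0.14 (SE) in 24NES, with a 95% interval of 0.41 to 1.00, and 0.61 ± 0.16 in 72NES, with an interval of 0.28 to 0.94. Limma's F-test gave an adjusted p of 0.108, the third smallest p of 2696 genes. No gene passed this test (0 of 2696, 0%), and 306 (11.4%) passed limma's test unadjusted. The adjusted p of Rbp4 lay between 0.107 and 0.309 over 14 alternatives. These differences rest on the same 5 HC arrays as those of SD in cohort 1. Rbp4 was chosen by its SD difference, which these arrays enter, and that choice favours a small p here. The p and its rank are therefore no independent support.

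At matched duration, SD and NES differed in Rbp4 by less than the error. The log2 difference, SD minus NES, was -0.03 ± 0.11 (SE) at 24 h, with a 95% interval of -0.26 to 0.19, and -0.07 ± 0.13 at 72 h, with an interval of -0.32 to 0.19. An equal level was not shown, since a difference of up to these bounds could not be told from 0. One gene other than the members passed this comparison (1 of 2696, 0.0371%; 188 unadjusted). Between the durations of SD, 72SD minus 24SD, the difference was -0.08 ± 0.097 (interval -0.27 to 0.12), and 0 of 2696 genes passed in limma (0%; 92 unadjusted).

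All 3 groups of cohort 2 had a higher mean of M10934_s_at than any group of cohort 1. The order of the 8 means ran from 9.73 ± 0.24 (SD, log2) in 24SD, 9.71 ± 0.15 in 72SD and 9.44 ± 0.51 in HC of cohort 2 to 9.19 ± 0.31 in 24NES, 9.16 ± 0.17 in 24SD, 9.10 ± 0.26 in 72NES, 9.03 ± 0.18 in 72SD and 8.49 ± 0.15 in HC of cohort 1. Each neighbour in this order overlapped with the next in range except the last pair, 72SD and HC of cohort 1. Over the SD and HC arrays, cohort 2 was 0.72 ± 0.084 (SE) above cohort 1 on the log2 scale, beside the median size of 0.20 over all genes.

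Of the other probe sets of Rbp4, K03045cds_s_at did not follow the first in its difference from HC, and K03045cds_r_at was higher in mean than HC, with large errors. K03045cds_s_at had medians of 379 in 24SD and 391 in 72SD, against 367 in HC of cohort 2, and of 285 in 24SD, 297 in 72SD, 281 in 24NES and 318 in 72NES, against 307 in HC of cohort 1. The groups overlapped in both cohorts. Its difference from HC was 0.10 ± 0.086 (SE) at 24SD and 0.07 ± 0.080 at 72SD, and in cohort 1 alone -0.06 ± 0.14 at both durations. In the NES groups it was -0.04 ± 0.15 in 24NES and 0.10 ± 0.17 in 72NES (limma's F-test, adjusted p = 0.8998). K03045cds_r_at, with signals of 17.8 to 128.7, was dim throughout: its differences were 0.19 ± 0.21 at 24SD and 0.25 ± 0.20 at 72SD, and 0.59 ± 0.29 in 24NES and 0.23 ± 0.32 in 72NES (adjusted p = 0.654). In cohort 1, 7 of 8 24SD, 6 of 8 72SD, 9 of 10 24NES and 5 of 6 72NES arrays lay above the mean of HC in K03045cds_r_at, and none above every HC array. All 3 probe sets were higher in cohort 2 than in cohort 1, K03045cds_s_at by 0.38 ± 0.069 and K03045cds_r_at by 0.57 ± 0.17. The deviations of an array from the mean of its group and cohort correlated by r = 0.22 between M10934_s_at and K03045cds_s_at over 69 arrays, and by 0.12 between M10934_s_at and K03045cds_r_at. Both probe sets named after K03045 lay below the signal filter, and the suffix s, which M10934_s_at also has, marks probes that the array's design shares between sequences. The probes' own sequences were not used here.

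**Figure D1:**
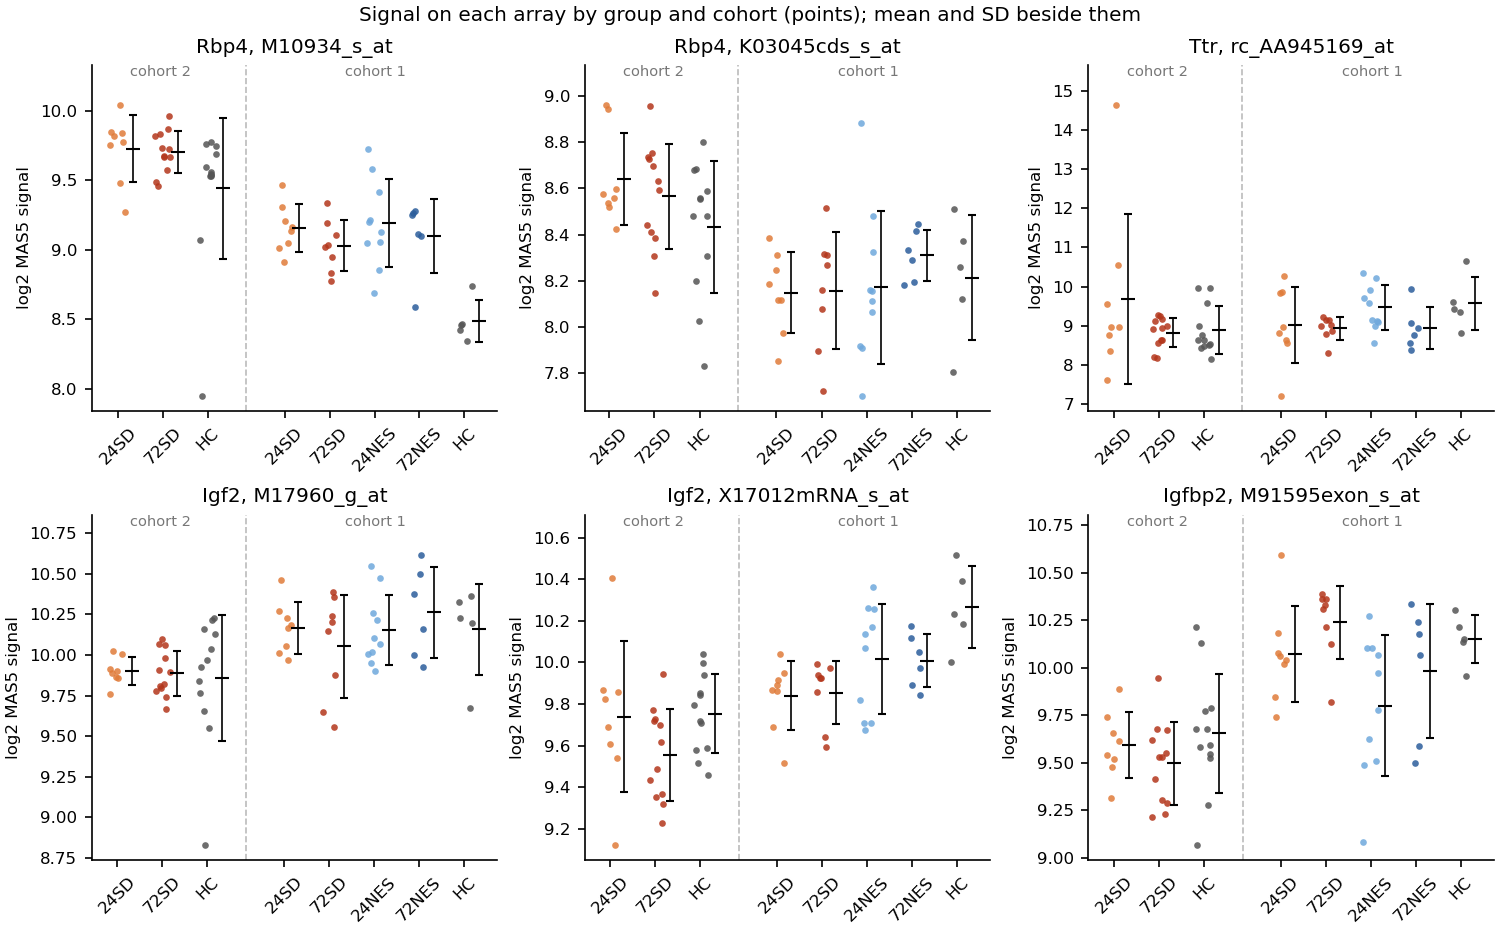
Log2 MAS5 signal (vertical axis) of 6 probe sets on each array (1 point an array) by group (horizontal axis), cohort 2 at left and cohort 1 at right of the dashed line; bars give the mean and SD of each group. For Rbp4 by M10934_s_at the 5 HC arrays of cohort 1 lie below all 16 SD arrays of that cohort, and 1 HC array of cohort 2 stands at 247.1; for Ttr 1 24SD array of cohort 2 stands at 25271.5.

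Ttr, whose protein carries retinol-binding protein 4 in the circulation, overlapped with HC in every group and had the widest spread among the member probe sets over the filter. By rc_AA945169_at its signal in cohort 2 was 198.1 to 25271.5 (median 502.5) in 24SD and 291.1 to 617.4 (median 485.9) in 72SD, against 283.2 to 1006.1 (median 399.7) in HC. In cohort 1 it was 148.1 to 1239.5 (median 476.1) in 24SD, 316.3 to 601.7 (median 518) in 72SD, 376.0 to 1306.9 (median 665) in 24NES and 335.5 to 981.3 (median 466.4) in 72NES. The 5 HC arrays of cohort 1 had 453.5, 658, 689.3, 773.7 and 1618.2. All groups overlapped with HC of their cohort, and no array of cohort 1 lay above its highest HC array.

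The log2 difference of Ttr from HC was 0.25 ± 0.34 (SE) at 24SD and -0.22 ± 0.32 at 72SD. Without 24SD replicate 32, which had the signal of 25271.5, it was -0.16 at 24SD and -0.25 at 72SD, so 1 array set its direction at 24 h. In the NES groups it was -0.11 ± 0.29 in 24NES and -0.63 ± 0.32 in 72NES, which did not pass (limma's F-test, adjusted p = 0.5003). SD minus NES was -0.45 ± 0.29 at 24 h (95% interval -1.04 to 0.14) and -0.01 ± 0.33 at 72 h (-0.67 to 0.66). The interaction with cohort was 0.96 ± 0.60 on average (adjusted p = 0.827). Cohort 2 minus cohort 1 was -0.03 ± 0.29, where Rbp4 had 0.72 ± 0.084.

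The second probe set of Ttr, rc_AA945169_g_at, told the same of single arrays, with an r of 0.88 between the deviations of both. Its differences had larger errors: 0.52 ± 0.51 (SE) at 24SD, -0.24 ± 0.47 at 72SD, -0.13 ± 0.77 in 24NES and -1.27 ± 0.85 in 72NES. A further probe set, rc_AI102562_at, is annotated to Ttr together with Mt1f and Mt1 and was not counted as a member.

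Igf2 was measured by 6 probe sets, which did not give 1 answer. M17960_g_at, the brightest, had medians of 952.5 in 24SD and 929.2 in 72SD, against 988 in HC of cohort 2, and its log2 difference from HC was 0.04 ± 0.088 (SE) at 24SD and -0.02 ± 0.083 at 72SD. X17012mRNA_s_at had differences of -0.18 ± 0.083 at 24SD and -0.26 ± 0.078 at 72SD. In cohort 1 the signals of X17012mRNA_s_at were 731.0 to 1051.6 (median 941) in 24SD, 772.0 to 1016.8 (median 971.5) in 72SD, 816.2 to 1315.4 (median 1100) in 24NES and 919.8 to 1155.5 (median 1033) in 72NES, against 1026.7 to 1466.6 (median 1202) in HC. Of the SD arrays of cohort 1, 7 of 8 at 24 h and 8 of 8 at 72 h lay below every HC array, and so did 4 of 10 24NES and 3 of 6 72NES arrays. How many of all genes part as far from so few HC arrays was not counted, and nothing is read from it. In cohort 2 the groups overlapped.

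By cohort, X17012mRNA_s_at differed from HC by -0.01 ± 0.10 (SE) at 24SD and -0.20 ± 0.093 at 72SD in cohort 2, and by -0.43 ± 0.13 and -0.41 ± 0.13 in cohort 1. The difference between the cohorts was 0.31 ± 0.14 and did not pass over every probe set (limma's F-test, adjusted p = 0.724). In the NES groups it was -0.25 ± 0.13 in 24NES and -0.26 ± 0.14 in 72NES (adjusted p = 0.656), while M17960_g_at was at -0.00 ± 0.13 and 0.10 ± 0.15 (adjusted p = 0.877). SD minus NES in X17012mRNA_s_at was -0.18 ± 0.096 at 24 h (95% interval -0.37 to 0.02) and -0.15 ± 0.11 at 72 h (-0.38 to 0.07). The deviations of both probe sets over the filter correlated by only 0.12, and M17960_g_at correlated by 0.65 with M17960_at, named after the same sequence.

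The other 4 probe sets of Igf2 lay below the filter. M17960_at differed from HC by -0.06 ± 0.13 (SE) at 24SD and 0.03 ± 0.12 at 72SD, X16703_r_at by -0.15 ± 0.19 and 0.07 ± 0.18, and E00988mRNA_s_at by 0.04 ± 0.11 and -0.05 ± 0.11. X16703_i_at, with signals of 0.7 to 155.5 and an SD of 1.54 within groups, was at 0.35 ± 0.55 and -0.34 ± 0.52. None of the 4 passed in the NES groups, where the largest difference was 0.81 ± 0.36 for X16703_r_at in 72NES (adjusted p = 0.627).

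Igfbp2, the binding protein, was near HC in sleep deprivation by its brightest probe set and lower in mean in the NES groups, though not past the test. M91595exon_s_at had 637.0 to 947.3 (median 765) in 24SD and 593.8 to 987.5 (median 739.6) in 72SD, against 536.1 to 1187.3 (median 795) in HC of cohort 2. In cohort 1 it had 856.9 to 1546.6 (median 1063) in 24SD, 903.6 to 1339.7 (median 1278) in 72SD, 541.6 to 1237.1 (median 941) in 24NES and 723.4 to 1291.4 (median 1116) in 72NES, against 995.2 to 1263.3 (median 1135) in HC. All groups overlapped with HC. The log2 difference was -0.09 ± 0.083 (SE) at 24SD and -0.07 ± 0.078 at 72SD, and -0.35 ± 0.17 in 24NES and -0.17 ± 0.19 in 72NES, which did not pass (limma's F-test, adjusted p = 0.513). SD minus NES was 0.27 ± 0.13 at 24 h (95% interval 0.0046 to 0.54) and 0.25 ± 0.15 at 72 h (-0.05 to 0.56). These intervals are not adjusted for the number of probe sets. Limma's F-test of SD against NES gave M91595exon_s_at an adjusted p of 0.646 to 0.907 over 9 alternatives. Without 24NES replicate 58 the difference at 24 h was 0.19.

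J04486_at, the second probe set of Igfbp2 over the filter, ran the other way in the NES groups. It was at 0.17 ± 0.17 (SE) in 24NES and 0.30 ± 0.19 in 72NES (adjusted p = 0.760), and at 0.11 ± 0.10 in 24SD and 0.10 ± 0.094 in 72SD. The deviations of M91595exon_s_at and J04486_at had an r of -0.00. A09811cds_s_at, below the filter, had lower medians in cohort 2 than in cohort 1: its medians in cohort 2 were 95 in 24SD and 107 in 72SD, against 118 in HC, and in cohort 1 427 in 24SD, 430 in 72SD, 302 in 24NES and 283 in 72NES, against 392 in HC. In 72SD single arrays of the cohorts overlapped (up to 391.9 in cohort 2, from 278 in cohort 1), and in HC they did not (up to 309.5, from 329.5). Cohort 2 minus cohort 1 was -1.63 ± 0.18 in A09811cds_s_at, -0.59 ± 0.068 in M91595exon_s_at and -0.23 ± 0.080 in J04486_at, so the 3 probe sets of Igfbp2 had the sign opposite to that of Rbp4 by cohort. SD minus NES in A09811cds_s_at was 0.43 ± 0.25 at 24 h and 0.76 ± 0.29 at 72 h (interval 0.18 to 1.35, not adjusted for the number of probe sets).

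**Figure D2:**
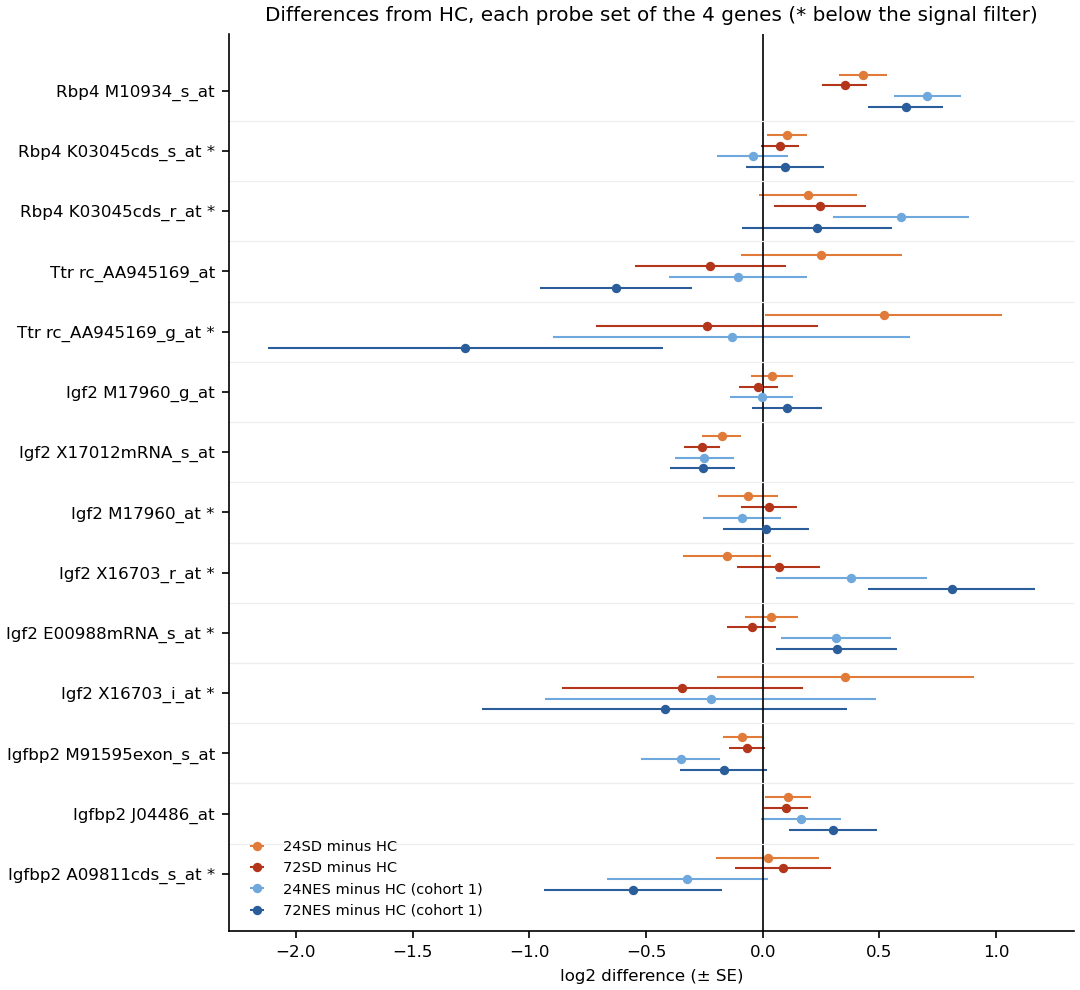
Log2 difference from HC (horizontal axis, points, with bars of 1 SE) of the 14 probe sets (rows) for 24SD and 72SD over both cohorts, with cohort in the model, and for 24NES and 72NES in cohort 1; an asterisk marks probe sets below the signal filter. M10934_s_at of Rbp4 is at 0.43, 0.35, 0.70 and 0.61, while K03045cds_s_at of the same gene is at 0.10, 0.07, -0.04 and 0.10.

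Spread between arrays set Ttr apart from the other members over the filter. The SD within groups and cohorts was 0.93 on the log2 scale for rc_AA945169_at, above all but 2 of the 2696 genes tested, and 0.64 without 24SD replicate 32, still above 99.4% of them. The median over genes was 0.23. M10934_s_at of Rbp4 had 0.29 (76.4% of genes tested lay below), M17960_g_at of Igf2 0.25 and X17012mRNA_s_at 0.22, M91595exon_s_at of Igfbp2 0.27 and J04486_at 0.29. Among genes of like level, within 0.5 of its mean log2 signal, 99.8% lay below Ttr and 56.1% below Rbp4.

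**Figure D3:**
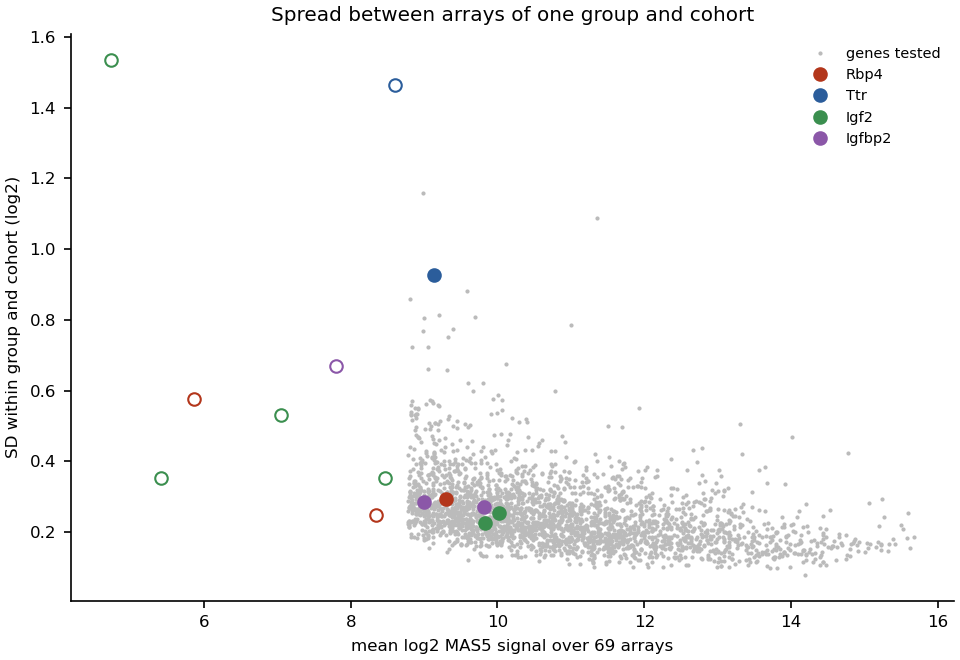
SD between arrays of 1 group and cohort (vertical axis, log2, pooled over the 8 groups) against the mean log2 signal over 69 arrays (horizontal axis) for the 2696 genes tested (grey) and the 14 member probe sets (colours; open circles lie below the signal filter). Ttr stands at 0.93, far over the other members that passed the filter, which lie between 0.22 and 0.29.

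Whether Rbp4 followed the other 3 genes from array to array was asked with each array's deviation from the mean of its group and cohort, which holds none of the difference between groups, over 69 arrays and with the brightest probe set of each gene. Rbp4 and Ttr had Pearson's r = -0.01 (permutation p = 0.917, two-sided) and Spearman's rho = -0.11 (permutation p = 0.373). Rbp4 and Igf2 had r = -0.06 (permutation p = 0.686) and rho = 0.02 (permutation p = 0.888). Rbp4 and Igfbp2 had r = -0.32 (permutation p = 0.0248) and rho = -0.25 (permutation p = 0.0482). After Benjamini-Hochberg adjustment over the 6 pairs of the 4 genes none passed: the adjusted p was 0.149 for r and 0.258 for rho of Rbp4 with Igfbp2, and 0.934 for r of Rbp4 with Ttr and with Igf2. No pair of the 4 genes passed under any of the 12 alternatives either.

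By cohort, r of Rbp4 with Ttr was -0.05 in cohort 2 and 0.08 in cohort 1, with Igf2 -0.15 and 0.06, and with Igfbp2 -0.20 and -0.49. Without HC replicates 2 and 6, the values were -0.03 with Ttr, 0.06 with Igf2 and -0.23 with Igfbp2. These were the 2 arrays farthest from the median log2 signal of Rbp4, not from the mean of their group. HC replicate 2 had a deviation of only -0.14, where 24NES replicate 58 had 0.53. Within the 7 groups of 6 or more arrays, r of Rbp4 with Ttr ran from -0.29 to 0.28 and with Igf2 from -0.71 to 0.65, so neither kept a sign, and with Igfbp2 it was negative in 5 of 7. Among the other pairs, Ttr and Igf2 had r = 0.01, Ttr and Igfbp2 0.06, and Igf2 and Igfbp2 0.19 (adjusted p = 0.479, permutation). By other probe sets, rc_AA945169_at of Ttr had r = 0.33 with X17012mRNA_s_at, 0.34 with J04486_at and 0.38 with A09811cds_s_at. Without 24SD replicate 32 these were 0.04, 0.09 and 0.07. With the remaining probe sets of Igf2 it ran from -0.03 to 0.14 over all arrays.

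**Figure D4:**
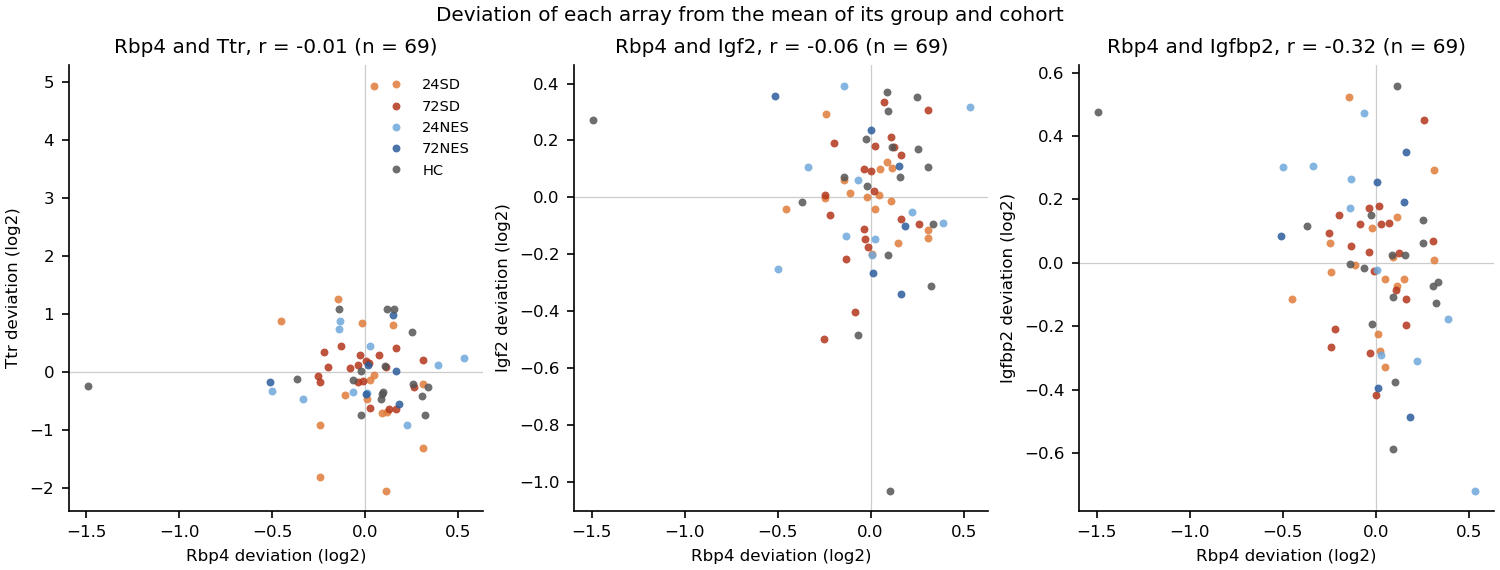
Deviation of Rbp4 on each array from the mean of its group and cohort (horizontal axis, log2) against that of Ttr, Igf2 and Igfbp2 (vertical axes, log2), 69 arrays, coloured by group. The clouds for Ttr and Igf2 have no slope (r = -0.01 and -0.06); that for Igfbp2 slopes down (r = -0.32), with HC replicate 6 at far left.

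The difference of Rbp4 between SD and HC was little changed when the brightest probe sets of the other 3 genes entered the same fit. As a mean over both durations it was 0.39 ± 0.086 (SE) alone, and 0.38 ± 0.088 with the log2 signals of Ttr, Igf2 and Igfbp2 as covariates, all 3 together. With 1 covariate it was 0.39 with Ttr, 0.39 with Igf2 and 0.37 with Igfbp2. With their deviations within groups as covariates it stayed at 0.39 by construction, with an SE of 0.087. Without HC replicate 6 the difference was 0.31. The covariates were rc_AA945169_at, M17960_g_at and M91595exon_s_at, and no other probe set of these genes was entered. On 24SD replicate 32, the array highest in Ttr, M17960_g_at (963) and M91595exon_s_at (746.2) were not above the other 24SD arrays of cohort 2. The part of choroid plexus or meninges in the Rbp4 difference was not tested by this fit.

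One array, 24SD replicate 32 of cohort 2, stood far above the rest in Ttr and was also high in some choroid plexus genes. Its Ttr signal of 25271.5 was 50.6 times the median of the other 7 24SD arrays of cohort 2 (499.8), which reached 1501.1 at most, and the highest of the other 68 arrays had 1618.2. The second Ttr probe set had 28495 there, and at most 2390 elsewhere. Of the 16 choroid plexus markers on the array, 6 (37.5%) were higher than in all other 7. Of the 2696 genes tested, 263 were (9.76%), but only 5 of the 16 markers passed the filter of those genes, so the 2 shares are not of like signals. The 6 were Enpp2, the secreted enzyme autotaxin, with 7493.1 against at most 2794.1, Sostdc1, a BMP antagonist, with 967.5 against at most 290.3, Aqp1, a water channel, with 178.1 against at most 66.5, and Kl, Ace and Slco1a5. Over the other 68 arrays, 26 were above it in Kl, 6 in Ace and 6 in Slco1a5. The rest of the list was not higher than in all 7, and Slc4a2, with 382.9 against at least 434.4, was lower. None of the 22 markers of meninges and perivascular fibroblasts on the array was higher than in the other 7.

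The brightest probe set of Rbp4 was not among the high ones. M10934_s_at had 876.2 on 24SD replicate 32, against a median of 902.9 and a highest value of 1052.1 on the other 7 arrays, and K03045cds_s_at had 497.5 against at most 491.7. Of Igf2 and Igfbp2, some probe sets were high there and others not: A09811cds_s_at had 623.8 against at most 161.8, J04486_at 850.6 against at most 564.4 and X17012mRNA_s_at 1358.5 against at most 933.6. M17960_g_at (963) and M91595exon_s_at (746.2) lay within the range of the others. Of the 14 probe sets of the 4 genes, 6 were thus higher on this array than on the other 7, among them K03045cds_s_at of Rbp4, whose value was also above the highest of the other 68 arrays (496), while M10934_s_at lay inside the range.

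**Figure D5:**
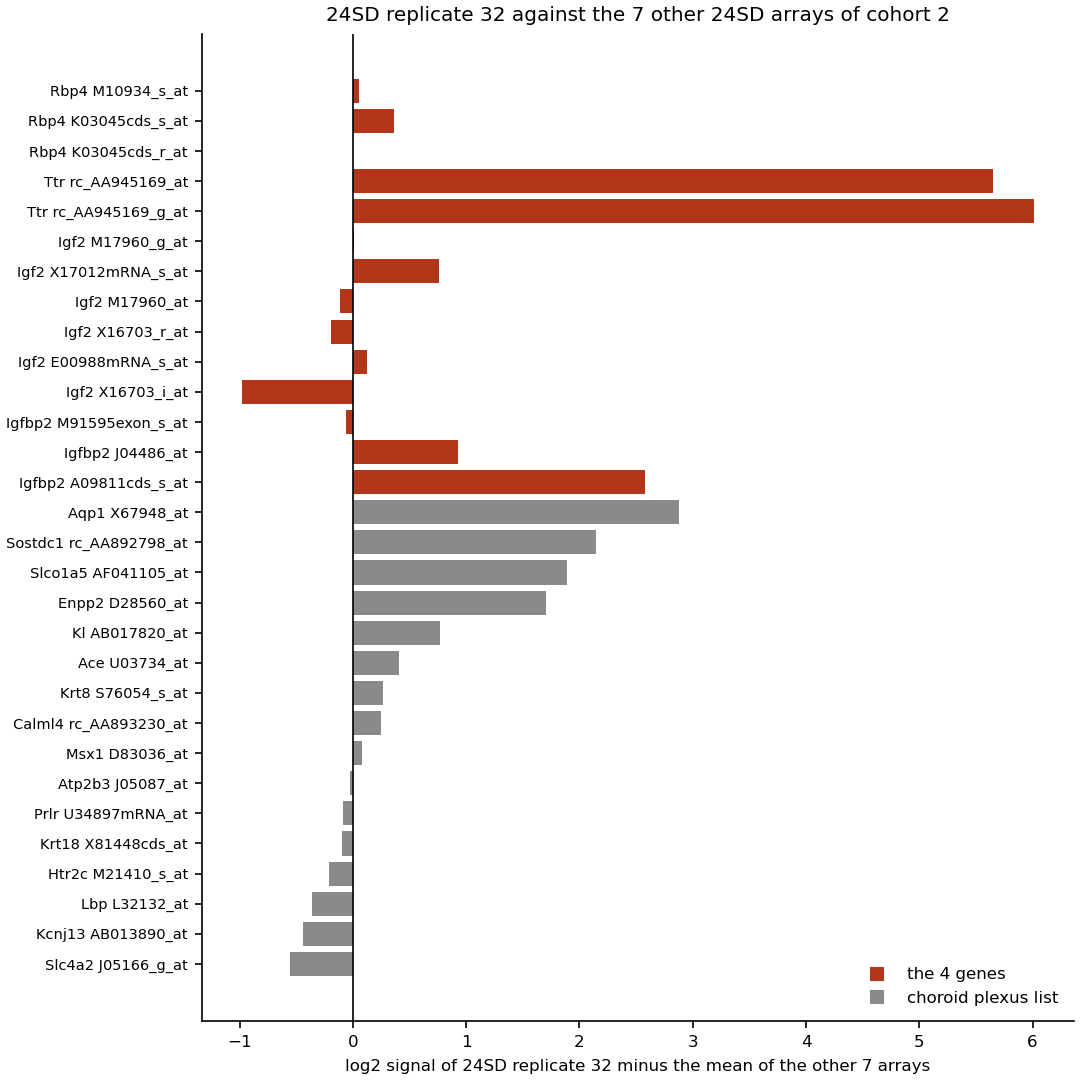
Log2 signal of 24SD replicate 32 minus the mean of the other 7 24SD arrays of cohort 2 (horizontal axis) for the 14 probe sets of the 4 genes (red) and the 16 choroid plexus markers on the array (grey), 1 bar each. Both probe sets of Ttr stand at 5.65 and 6.01, M10934_s_at of Rbp4 at 0.05.

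Few markers of the tissues next to CA1 passed the filter, and beside the share called over all genes (0.371% in SD and 0% in NES) a count of 0 among them is at the background. Unadjusted, 12.4% of all genes passed in SD and 11.4% in NES. Of 16 choroid plexus markers on the array, 5 passed the filter (Enpp2, Atp2b3, Slc4a2, Ace and Msx1), and 0 were higher or lower in SD in limma, with 0 unadjusted; their median difference was -0.03, beside -0.01 over all genes. Atp2b3, a calcium pump, and Enpp2, the brightest of them, were at -0.03 ± 0.049 (SE) and -0.05 ± 0.098. In NES 0 were called and 1 passed unadjusted, Msx1, a homeobox factor, at 0.56 ± 0.14 (SE; limma's F-test, adjusted p = 0.209). The median of the 5 was 0.07 in NES, beside -0.005 over all genes. The summed signal of the 16 ran from 8921 to 15736 in 24SD and from 8724 to 10253 in 72SD, against 9145 to 11337 in HC of cohort 2, where the highest 24SD value is replicate 32 and the next 10822. In cohort 1 it ran from 10015 to 10700 in 24SD, 9203 to 11094 in 72SD, 9770 to 11952 in 24NES and 10207 to 12314 in 72NES, against 9844 to 11070 in HC. Each range overlapped with that of HC of its cohort. Enpp2 and Atp2b3 are also known from other brain cells.

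Of 22 markers of meninges and perivascular fibroblasts, 10 passed the filter and 0 were called in SD in limma. Ptgds, the brightest, which makes prostaglandin D2, was at 0.09 ± 0.053 (SE), and 3 passed unadjusted: Dcn, the proteoglycan decorin, at -0.54 ± 0.22 (SE), Mgp, matrix Gla protein, at 0.19 ± 0.066, and Fn1, fibronectin, at 0.17 ± 0.065. Over all genes 12.4% passed unadjusted in SD. The median of the 10 was -0.10 in SD and 0.13 in NES, beside -0.01 and -0.005 over all genes. The summed signal of the 22 overlapped between groups, with 17890 to 21714 in 24SD and 16461 to 21702 in 72SD, against 18144 to 20775 in HC of cohort 2, and 16130 to 17783 in 24SD, 15543 to 19294 in 72SD, 16140 to 20086 in 24NES and 16191 to 22657 in 72NES, against 15412 to 18509 in HC of cohort 1. Ptgds alone had a geometric mean of 7450 over all arrays, so these sums rest largely on that gene. Deviations of Rbp4 correlated with those of the choroid plexus markers by a median of -0.02 and with those of the meningeal markers by -0.08, beside -0.01 over 4732 genes. Single markers ran from -0.21 to 0.13 (Sostdc1) on the choroid plexus list and from -0.42 to 0.49 (Gjb2, a gap junction protein) on the meningeal list, where 5% of all genes lay above 0.31. Ttr had a median of 0.04 with the choroid plexus markers, and of 0.06 without 24SD replicate 32. Its r with Enpp2 was 0.53 with that array and 0.08 without it, and with Sostdc1 0.46 and 0.05. With Kl it was 0.36 and 0.33, and with Msx1 0.21 and 0.28.

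Within cohort 1, blood markers had their highest median in HC, where Rbp4 was lowest. The summed signal of the 6 on the array was 7900 to 15632 in 24SD, 7580 to 14780 in 72SD, 6377 to 15959 in 24NES and 9502 to 14877 in 72NES, against 15299 to 17831 in the 5 HC arrays. In cohort 2 it was 12024 to 18932 (median 17396) in 24SD and 9824 to 17457 (median 15947) in 72SD, against 9305 to 17389 (median 11795) in HC, so that there HC had the lowest median of both. Of the 3 that passed the filter, 0 were called in any comparison in limma, and 2 passed unadjusted in the test of the SD difference by cohort. In NES all 3 were lower in mean than in HC, with a median of -0.34, and 1 passed unadjusted, Alas2, an enzyme of heme synthesis, at -0.34 ± 0.14 (SE). Over all genes 7.38% passed unadjusted by cohort and 11.4% in NES, where the median of all genes was -0.005. The part of blood in the Rbp4 difference was not tested. Ependymal markers (5 on the array) were all below the filter, and of 6 markers of endothelium and mural cells and 7 of neurons over it 0 were called in any comparison, with 1 of each unadjusted in SD. The unadjusted share of all genes in SD was 12.4%.

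The other genes of the pathways these proteins belong to are given beside the same shares of all genes, 0.371% called in SD and 0% in NES, so that a count of 0 among 4 or 9 genes is at the background. Unadjusted, the shares were 12.4% in SD and 11.4% in NES. Among 17 genes of retinoid carriers, enzymes and receptors on the array, 4 passed the filter and 0 were called in SD or NES, with 0 unadjusted in either. Aldh1a1, which makes retinoic acid, was at -0.06 ± 0.059 (SE) in SD and -0.01 ± 0.10 in NES, and Rara, a retinoic acid receptor, the brightest of them, at -0.03 ± 0.097 and -0.01 ± 0.21. Among 9 genes of thyroid hormone carriers, enzymes and receptors, 4 passed the filter and 0 were called, with 1 unadjusted in SD, Hr, a corepressor, at -0.12 ± 0.050. Thra, a thyroid hormone receptor, was at 0.01 ± 0.056 in SD and 0.06 ± 0.094 in NES.

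In the insulin-like growth factor system, 9 of 16 genes passed the filter and 0 were called in SD or NES, with 0 unadjusted in either. The brightest were Ctsd, a lysosomal protease, at -0.11 ± 0.056 (SE) in SD and -0.14 ± 0.10 in NES, and Ins2, an insulin gene, at -0.05 ± 0.053 and 0.01 ± 0.12. Igf1, the other ligand, was at -0.01 ± 0.083 in SD and 0.14 ± 0.13 in NES, Igf1r, the receptor of both ligands, was at 0.14 ± 0.079 and 0.26 ± 0.14, and Igf2r, which clears Igf2, was at 0.06 ± 0.084 and 0.31 ± 0.15. Igfbp6, a binding protein that prefers Igf2, was at -0.17 ± 0.070 and -0.06 ± 0.11.

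The genes whose deviations were most like those of each member over 69 arrays are given as a description; genes of 1 array share its scaling and RNA quality and are not independent. For Rbp4 they were Cdk4, a cell cycle kinase (r = 0.66), Irgq (0.63), Blmh (0.62), Vps33a (0.62), Cdc42 (0.62), Dnaja2 (0.61), F3 (0.59), Gsto1 (0.58), Cx3cl1 (0.56) and Cds1 (0.55). Without HC replicate 6 only 1 of these 10 was still among the nearest 10, and r with Cdk4 was 0.32. For Ttr the nearest were Enpp2 (0.53), Limk1 (0.33) and Tlcd1 (0.31), and 2 of its 10 remained without 24SD replicate 32. For Igf2 they were Kcnmb1 (0.79), Pigl (0.76) and Fev (0.74), and for Igfbp2 Cby1 (0.55), Tmem205 (0.54) and Lep (0.53). These genes came from the 2692 tested genes other than the members, which held only 5 choroid plexus and 10 meningeal markers. None of these markers was among the 10 nearest to Rbp4, which so few would seldom be, so nothing is read from it. Gjb2, with r = 0.49 with Rbp4, had a signal of 439.1, below the filter, and could not be listed. Enpp2 was among those nearest to Ttr.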

How the data were processed

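CA1 RNA of 69 rats was hybridized to 1 Affymetrix array per animal. The authors deposited 1 linear MAS5 signal, an intensity, for each of 8799 probe sets (45 values were 0); the version of MAS5 is not given in the sources used here. Controls (59) were left out; 7006 probe sets carried 1 gene symbol, 308 several and 1426 none. Signals were set to at least 1 and log2 transformed, with no further scaling. The brightest probe set stood for a gene if its mean lay in the upper 50%. Groups came from the labels. Differences were fitted in limma 3.58.1 (R 4.3.3; lmFit, eBayes) with Benjamini-Hochberg adjustment over the 2696 genes (threshold 0.05), or over every non-control probe set for the others. Correlations used 100000 permutations of arrays within group and cohort (Python 3.11.15, scipy 1.17.1). Promoter windows and loci are RefSeq's (GRCr8), matched by symbol for all 4 genes. Scripts were tested on simulated data. The number of arrays limits the precision.

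The members and lists were chosen with earlier results of these data known. Named are the 4 genes with all their probe sets, the 10 genes nearest to each (the first 3 where fewer are printed), and of each list the genes past a test, otherwise the brightest, and genes a marker level needs. Dcn, Mgp, Fn1, Msx1, Alas2 and Hr, which passed only unadjusted, and Gjb2, Igf1, Igf1r, Igf2r and Igfbp6 fall outside this rule and were chosen after their values were seen. Results were recomputed with quantile normalization, median centring, signals of at least 50, other signal filters, robust eBayes, every probe set, the 1-way ANOVA of the methods with and without its removal of values, cohort left out or taken alone, and single arrays left out. Leaving out HC replicate 6, 24SD replicate 32 or 24NES replicate 58, and log2 signals as covariates, were chosen after seeing the data. Scanner files were not analysed here.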

Additional observations from a re-analysis of the deposited data

Results flagged for a closer look

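Each of the 14 probe sets was looked at in the 6 groups of 4 to 10 arrays, 84 sets of values in all, for a highest or lowest array whose gap to the next took up more of the range than Dixon's 95% value allows. Chance flags about 1 in 20, or 4.2 of them; 11 stood out, on 10 arrays. For Rbp4 by M10934_s_at it was 72NES replicate 68, with 384.4, the lowest of 6, where the next was 549.8. For K03045cds_r_at, the dimmest probe set of Rbp4, 24SD replicate 22 had 17.8 (next 49), 24SD replicate 29 had 19.6 (next 60.8) and 72NES replicate 70 had 21.5 (next 44.4), each the lowest of its group. Ttr by rc_AA945169_at had 25271.5 in 24SD replicate 32, the highest of 8 (next 1501.1), and Igfbp2 by A09811cds_s_at had 623.8 on the same array (next 161.8).

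For Igf2, HC replicate 3 had 817.5 by M17960_g_at, the lowest of 5 (next 1174.2), 24SD replicate 19 had 255.3 by M17960_at, the lowest of 8 (next 342), and 24NES replicate 58 had 119.8 by E00988mRNA_s_at, the highest of 10 (next 68.6). That array also correlated least with its group. For Igfbp2, 72SD replicate 40 had 903.6 by M91595exon_s_at, the lowest of 8 (next 1114.6), and 72NES replicate 72 had 346 by J04486_at, the lowest of 6 (next 587.9). HC replicate 6, with the lowest signal of Rbp4, is 1 of 12 and in a group too large for this comparison. The causes were not tested.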

How the results depend on the processing

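Of the values for single probe sets and settings, 862 kept their side of the threshold or moved by less than the spread between arrays. A kept sign was not required, and Igf2 by M17960_g_at kept it in 10 of 14 alternatives for 24NES minus HC. The other 2 moved further: in cohort 1 alone Igf2 by X17012mRNA_s_at was at -0.43 at 24SD minus HC, and Igfbp2 by J04486_at at 0.39 at 72SD minus HC. Without 24SD replicate 32, Ttr at 24SD minus HC was -0.16 in place of 0.25. The 10 genes called in SD against HC were 6 with no signal filter, 6 with the upper 40% of signals, 0 in limma with cohort left out (126 unadjusted) or in cohort 2 alone (206 unadjusted), and 113 by the methods' ANOVA once signals more than 2 SD off the mean of their treatment were removed (585 at the threshold of the methods). Leaving out single arrays gave 6 to 11, with 6 without HC replicate 2, 3 or 5 or 24SD replicate 32. The 1 gene of SD against NES was joined by another (2) after quantile normalization, and single arrays left out gave 1 to 2, with 2 without 72NES replicate 71. The 5 genes of the SD difference by cohort were 0 in limma after median centring (179 unadjusted), 3 over every probe set, and 0 to 5 with single arrays left out, where the 0 was without HC replicate 4 (176 unadjusted). The causes were not tested.

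In NES against HC and in 72SD against 24SD limma called 0 genes under each alternative run. No paired analysis was possible because the replicate numbers are subject numbers that differ in every group, and which animals shared a chamber is not in the labels. With 5 HC arrays in cohort 1, each NES value rests on few controls. Detection calls were not analysed. Probe sets of 1 gene disagreed for Rbp4, Igf2 and Igfbp2.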
